A study of Mus musculus with 9 samples.

Results

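The rows of 10 mouse genes in the count table were followed, S100a8, S100a9, Retnlg, Lcn2, Camp, Ngp, Ltf, Mpo, Csf3r and Cxcr2, chosen by symbol as granule and receptor genes of neutrophils. All of these were found among the 23413 genes of the table, and all 10 passed the filter on low counts that left 11393 genes for testing. The libraries are polyA RNA-seq of liver macrophages labelled as Kupffer cells, the resident macrophages of the liver, and by its title each library is from 1 mouse. The study describes more mice per group than there are libraries here, and whether mice were pooled was not given in the sources used here. The study asked how diet and DPI (diphenyleneiodonium, used as an agonist of the receptor GPR3) alter these cells. Male C57BL/6 mice, 5 weeks old at the start, were kept for 8 weeks on normal chow (NC, 2 libraries), on a high-fat diet (HFD) with injected vehicle (vehicle, 3 libraries) or on HFD with DPI at 2 mg/kg every 5 days from week 3 (DPI, 4 libraries). NC mice are not described as injected, so that HFD against NC is a change of diet together with the vehicle. The labels of all 9 libraries instead describe purified cells given 500 nM DPI or solvent for 24 h, and the groups were named by the diet and treatment labels, which both accounts share.

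Neutrophils are short-lived granulocytes that form their granules in sequence while they mature in the bone marrow. Mpo belongs to the primary granules of the promyelocyte, Camp, Ngp, Ltf and Lcn2 to the secondary granules of the next stages, and S100a8, S100a9, Retnlg and Cxcr2 are high in mature cells that have left the marrow. Healthy liver holds few neutrophils, which collect there during inflammation, and monocytes also make S100a8 and S100a9.

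The study's sort kept cells with F4/80, CD11b and a low signal for Gr-1, an antibody that binds Ly6G of neutrophils and Ly6C of monocytes, whereas the series description names F4/80 and CD11b alone. Ly6g was on the list of neutrophil genes but had no row under this symbol in the count table, so it could not be assessed. The Kupffer cell label was not matched by its defining marker in every library, since counts of Clec4f were 0 and 244 for NC, 42, 0 and 0 for vehicle and 219, 6, 4 and 6 for DPI. Each library held 3534325 to 15585775 counts (median 4918629), and Rn45s, the ribosomal RNA precursor, took 27.0% to 44.5% of them. Levels are given in CPM, the counts of a gene scaled to a common library total by the TMM method, and 3 counts, taken as the floor of detection, correspond to 0.184 to 1.02 CPM. DPI libraries 1 and 2 stood apart from the other DPI libraries in S100a8, S100a9 and Retnlg, and the comparisons with DPI were also fitted without them.

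The promoters of the calprotectin pair (S100a8 and S100a9) and of Camp, Ngp and Ltf are shown because these 2 sets of genes followed different courses over the libraries. Each run is the stretch of the 250 bases before the RefSeq start that precedes the first exon in GENCODE M21, on GRCm38.p6 and 5′ to 3′ on the gene's strand, with capitals for the letters TTGCNNAA or, as the same motif on the other strand, TTNNGCAA. This pattern is that of C/EBP factors, which drive granule genes in maturing neutrophils. The runs are chr3:90668821-90668977 (+) for S100a8, chr3:90695722-90695971 (-) for S100a9, chr9:109849618-109849706 (-) for Camp, chr9:110419558-110419746 (+) for Ngp and chr9:111019042-111019270 (+) for Ltf.
S100a8: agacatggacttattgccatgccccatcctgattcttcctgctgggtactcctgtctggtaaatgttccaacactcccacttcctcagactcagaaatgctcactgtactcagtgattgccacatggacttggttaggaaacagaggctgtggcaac
S100a9: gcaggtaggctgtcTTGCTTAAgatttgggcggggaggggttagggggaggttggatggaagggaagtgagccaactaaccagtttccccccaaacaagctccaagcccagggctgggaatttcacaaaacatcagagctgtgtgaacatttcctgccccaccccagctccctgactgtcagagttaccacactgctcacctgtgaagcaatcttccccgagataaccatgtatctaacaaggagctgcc
Camp: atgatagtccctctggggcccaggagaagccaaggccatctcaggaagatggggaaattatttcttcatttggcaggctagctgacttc
Ngp: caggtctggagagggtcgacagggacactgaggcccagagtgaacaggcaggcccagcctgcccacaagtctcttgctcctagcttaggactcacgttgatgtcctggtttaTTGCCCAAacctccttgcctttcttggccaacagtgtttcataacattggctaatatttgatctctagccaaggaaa
Ltf: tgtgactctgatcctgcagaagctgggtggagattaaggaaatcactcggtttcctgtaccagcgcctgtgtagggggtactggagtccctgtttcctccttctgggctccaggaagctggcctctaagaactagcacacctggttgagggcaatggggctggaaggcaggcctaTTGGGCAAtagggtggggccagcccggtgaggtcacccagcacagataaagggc

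Over the full 250 bases the C/EBP letters were present in 5 of the 10 members (S100a9, Retnlg, Lcn2, Ngp and Ltf), against 9.56% of 32851 RefSeq promoters of the same length. Ngp held TTGCCCAA, which begins 138 bases before the start, and TTGGGCAA, which begins 11 bases before it and lies past the printed run, and Ltf held TTGGGCAA, which begins 75 bases before it. Searched on both strands, TATAAA was present in 1 member, S100a8, against 12.4% of promoters, and GAGGAA, a core of PU.1 sites, in 6 of 10, against 23.3%. The matches are descriptions of these windows.

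Together the 10 genes took 0.167% and 0.381% of NC library counts, 0.257%, 0.344% and 0.329% of vehicle library counts and 0.0967%, 0.0795%, 0.397% and 0.610% of DPI library counts. The DPI libraries therefore held both the lowest and the highest shares, and the group means of 0.274% ± 0.151 (SD, n = 2), 0.310% ± 0.0467 (SD, n = 3) and 0.296% ± 0.255 (SD, n = 4) lay within these spreads. The exact 95% binomial interval for the lowest share ran from 0.0766% to 0.0825%, and such intervals cover counting error only. In bulk libraries fewer neutrophils and less RNA per neutrophil cannot be told apart.

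**Figure D1:**
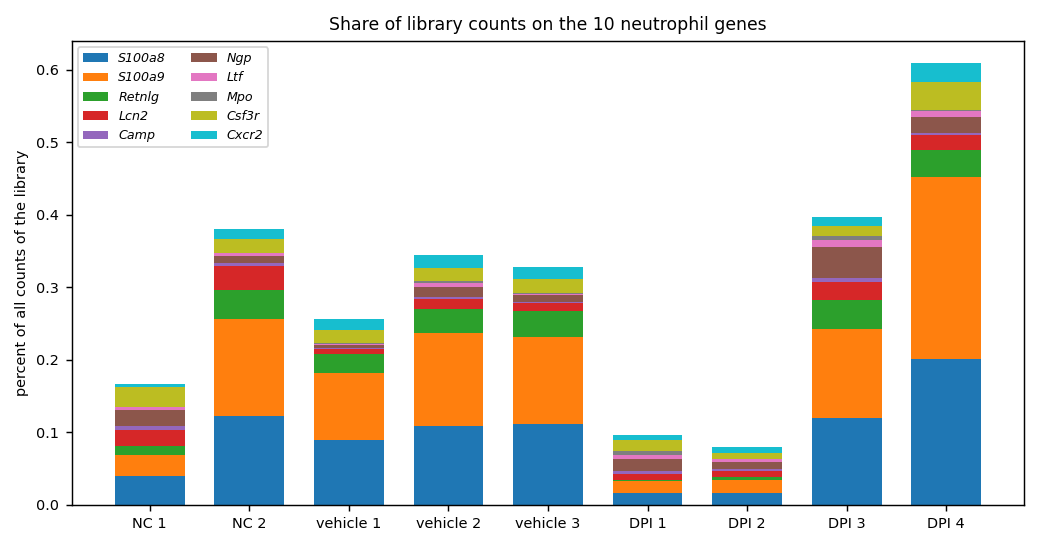
Stacked bars give the percent of all counts of each library that fell on each of the 10 genes (vertical axis, percent). S100a8 and S100a9 make up most of the bar in vehicle libraries and in DPI 4, whereas DPI 1 and DPI 2 have short bars, at 0.0967% and 0.0795%, with a smaller part from this pair.

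S100a8 and S100a9 encode the calprotectin subunits, abundant calcium- and zinc-binding proteins of the neutrophil cytosol. S100a8 lies on chromosome 3 from 90668978 to 90670035 (GRCm38, plus strand), and S100a9 lies 22596 bases from it, from 90692632 to 90695721 on the minus strand. S100a8 had 342 and 1096 CPM in NC, 912, 1091 and 1357 CPM with vehicle and 158, 188, 1186 and 1899 CPM with DPI. The vehicle libraries were close together, while the DPI libraries fell into a low and a high pair and the groups overlapped. S100a9 had 246 and 1198 CPM in NC, 933, 1284 and 1472 CPM with vehicle and 150, 221, 1229 and 2356 CPM with DPI, in the same order of libraries within each group. Neither gene passed the test in any comparison, and S100a8 gave log2 fold changes of 0.64 ± 0.84 (SE) for HFD against NC, -0.38 ± 0.69 for DPI against vehicle and 0.25 ± 0.79 for DPI against NC. For HFD against NC the value was 0.040 without NC library 1 and 1.74 without NC library 2, and for DPI against vehicle it ran from -1.13 without DPI library 4 to -0.038 without DPI library 1. S100a9 ran from 0.048 to 2.35 for HFD against NC.

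Without DPI libraries 1 and 2, an alternative chosen after seeing the data, the log2 fold change of DPI against vehicle was 0.46 for S100a8 and 0.54 for S100a9, so that its sign depended on these libraries. Retnlg, which encodes a resistin-like secreted protein of neutrophils (chromosome 16 from 48872621 to 48874496), had 99.4 and 359 CPM in NC, 259, 333 and 421 CPM with vehicle and 24.1, 54.0, 397 and 362 CPM with DPI. It was again low in DPI libraries 1 and 2, and its log2 fold change of DPI against vehicle was -0.69 ± 0.73 (SE) with all libraries and 0.17 without these.

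**Figure D2:**
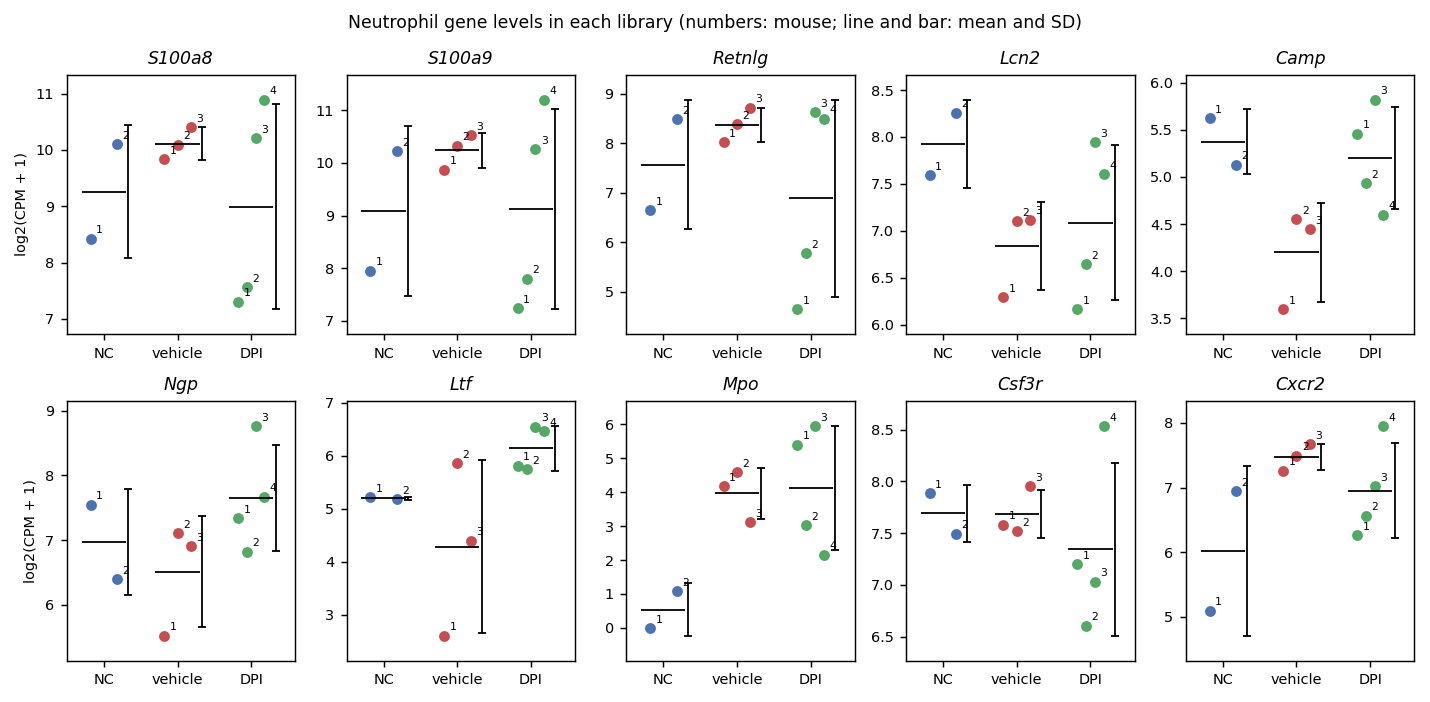
Each panel gives 1 gene, with log2(CPM + 1) on the vertical axis, libraries as points numbered by mouse, and the group mean (line) and SD (bar). S100a8, S100a9 and Retnlg are split within DPI between mice 1 and 2 and mice 3 and 4, whereas every DPI point of Camp lies above every vehicle point.

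Of the members from secondary granules, Camp, Ngp and Ltf were higher with DPI than with vehicle at the study's threshold, an unadjusted p under 0.05 with at least a 2-fold change. Lcn2, from the same granules, did not pass (0.37 ± 0.41, log2, SE). Of 9 other listed genes of secondary and tertiary granules tested, 0 passed, against 1.50% of all genes higher and 1.34% lower. Their median log2 fold change was 0.17. Camp, the precursor of the antimicrobial peptide CRAMP, had 48.3 and 34.0 CPM in NC, 11.1, 22.5 and 20.8 CPM with vehicle and 43.0, 29.5, 55.5 and 23.3 CPM with DPI. Vehicle lay below both other groups without overlap, and the margin to DPI library 4 was small. Ngp, neutrophilic granule protein, had 186 and 83.1 CPM in NC, 45.1, 137 and 119 CPM with vehicle and 161, 112, 433 and 202 CPM with DPI. Ltf, the iron-binding lactoferrin, had 36.2 and 35.3 CPM in NC, 5.11, 56.9 and 20.1 CPM with vehicle and 55.3, 52.6, 92.4 and 87.1 CPM with DPI. For Ngp and Ltf vehicle library 1 was the lowest of all 9 and DPI library 3 the highest, and vehicle library 2 (for Ngp also vehicle library 3) lay above the lowest DPI library.

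With DPI the 3 genes exceeded vehicle by a log2 fold change of 1.06 ± 0.41 (SE) for Camp, 1.18 ± 0.49 for Ngp and 1.39 ± 0.58 for Ltf by edgeR's quasi-likelihood test. These 3 of 10 members were called higher, against 1.50% of all genes tested, and 0 were called lower, against 1.34%. Camp was the 1 member whose groups did not overlap, against 3.38% of genes in this direction, and 0 members were lower without overlap, against 2.48%. After Benjamini-Hochberg adjustment 0 of the 10 passed, against 0% of all genes, whereas the same 3 had an unadjusted p under 0.05, and DESeq2 also gave 0 after adjustment. The adjusted p by edgeR was 0.999 for each of the 3. The calls depended on single libraries, as 0 members passed the study's threshold without vehicle library 1 or without DPI library 3, and Camp was the 1 that passed without vehicle library 3. Camp did not pass without DPI library 1 or without DPI libraries 1 and 2 together, and Ltf did not pass without DPI library 4. The log2 fold changes nevertheless stayed above 0 with any 1 library left out, from 0.80 to 1.25 for Camp, 0.66 to 1.47 for Ngp (lowest without DPI library 3) and 0.88 to 2.52 for Ltf (lowest without vehicle library 1 and highest without vehicle library 2). Without DPI libraries 1 and 2 together they were 1.11 for Camp, 1.66 for Ngp and 1.71 for Ltf.

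Camp, Ngp and Ltf shared a position that the choice of genes had not used. They lie on chromosome 9, Camp from 109847379 to 109849617 (minus strand), Ngp from 110419747 to 110423012 and Ltf from 111019271 to 111042767 (both plus strand), within 1195389 bases. Between Camp and Ltf lie 51 other GENCODE genes, of which 14 were tested. For DPI against vehicle 0 of these 14 passed the study's threshold, against 1.50% of all genes called higher and 1.34% called lower. With so few genes, 0 calls is near these shares. Their log2 fold changes ran from -0.80 to 0.19 with a median of 0.05. This look at the neighbours was chosen after the values of the 3 genes were seen.

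Lcn2, lipocalin 2, sequesters bacterial siderophores and is also made by hepatocytes and macrophages (chromosome 2 from 32384633 to 32388252). It had 192 and 306 CPM in NC, 77.5, 136 and 138 CPM with vehicle and 70.6, 98.8, 245 and 193 CPM with DPI. Every vehicle library lay below both NC libraries. On HFD with vehicle the log2 fold change from NC was -1.08 ± 0.48 (SE, adjusted p = 0.363 by edgeR) for Lcn2 and -1.18 ± 0.47 (adjusted p = 0.335) for Camp, both lower at the study's threshold. The 6 hepatocyte markers moved in the same comparison, with sums of 119 and 185 CPM in NC and 49.3, 18.1 and 34.4 CPM with vehicle, and 3 of the 6 were called lower, against 4.63% of all genes, and 0 higher. Among these were Alb, albumin, at -2.74 and Serpina1a, alpha-1-antitrypsin, at -2.43 (log2), and the part of hepatocyte RNA in the Lcn2 difference was not tested. With DPI, Lcn2 spread from below the vehicle range into the NC range, and its log2 fold change against vehicle was 0.37 ± 0.41.

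Mpo, myeloperoxidase, is the enzyme of the primary granules (chromosome 11 from 87793581 to 87804413). Its counts were 0 and 6 for NC, 77, 126 and 31 for vehicle and 666, 21, 323 and 34 for DPI, which corresponds to 0 and 1.12 CPM, to 17.1, 22.9 and 7.68 CPM and to 40.8, 7.13, 59.9 and 3.47 CPM. All HFD libraries lay above both NC libraries, and the DPI libraries ran from below to above the vehicle range. The fitted log2 fold change from NC was 4.79 ± 1.41 (SE, adjusted p = 0.221 by edgeR) with vehicle and 5.60 ± 1.43 (adjusted p = 0.194) with DPI, both past the study's threshold. With NC near the floor these values depend on the added prior count, and HFD against NC ran from 3.82 to 9.76 when libraries were left out in turn. Elane, the primary granule elastase, also had 0 CPM in NC library 1 but 18.7 CPM in NC library 2, with 3.11, 32.8 and 20.1 CPM with vehicle and 35.4, 28.2, 62.7 and 7.76 CPM with DPI, and did not pass in any comparison.

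Neither receptor gene passed the study's threshold in the fit of all libraries. Csf3r, the receptor of the granulocyte growth factor G-CSF (chromosome 4 from 126024550 to 126044440), had 236 and 179 CPM in NC, 190, 182 and 247 CPM with vehicle and 146, 96.5, 130 and 370 CPM with DPI. NC and vehicle covered nearly the same range, and DPI held both the lowest and the highest library. Cxcr2, the chemokine receptor that draws neutrophils into tissue (chromosome 1 from 74153989 to 74161246), had 33.1 and 122 CPM in NC, 152, 179 and 203 CPM with vehicle and 75.9, 93.7, 129 and 247 CPM with DPI. All vehicle libraries exceeded both NC libraries, with a log2 fold change of 1.20 ± 0.56 (SE, adjusted p = 0.388 by edgeR), and the unadjusted p was just above the threshold. Cxcr2 passed it in this comparison under several alternatives, among them no filter on low counts, at least 10 counts in every library, DESeq2, 2 groups only and no Rn45s counts, and did not with RLE scaling or library size alone (0.91). Its log2 fold change was 0.55 without NC library 1 and 2.45 without NC library 2. Of 10 listed ligands and partners 5 were tested and 0 passed in any comparison. Of all genes 11.7% were called for HFD against NC, 2.84% for DPI against vehicle and 9.29% for DPI against NC. With 5 genes, 0 calls is near these shares. Csf3, which encodes G-CSF, had 0 counts in each of the 9 libraries.

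Over all members, HFD against NC gave 1 higher call (Mpo), against 7.03% of all genes tested, and 2 lower calls (Lcn2 and Camp), against 4.63%. The groups did not overlap for 2 members that were higher (Mpo and Cxcr2), against 15.0%, and for 2 that were lower (Lcn2 and Camp), against 12.5%. DPI against NC gave 1 higher call (Mpo), against 6.24%, and 0 lower calls, against 3.05%, and Mpo and Ltf were the 2 members that were higher without overlap, against 11.7%, with 0 lower, against 8.50%. Without DPI libraries 1 and 2 the members called for DPI against NC were 4, with S100a8 (1.10), S100a9 (1.31) and Cxcr2 (1.27, log2) beside Mpo (5.77), all higher, against 5.52% of the genes tested in that fit. After adjustment 0 of the 10 passed by edgeR in either comparison, against 0.0614% of genes for the first and 0.00878% for the second. The members with an unadjusted p under 0.05 were those called, 3 and 1, and DESeq2 gave 1 member, Mpo, after adjustment in each, against 2.51% and 1.68% of the 15818 genes it tested.

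The median log2 fold change of the 10 genes was 0.28 on HFD against NC, 0.11 with DPI against vehicle and 0.35 with DPI against NC, beside 0.03, 0.04 and 0.04 for all genes tested. DPI against vehicle and HFD against NC share the vehicle libraries, so a low vehicle value enters both with opposite sign. Without vehicle library 1, Mpo was the 1 member past the threshold for HFD against NC. Camp did not pass without NC library 1, and Lcn2 did not pass without NC library 2 or without any 1 of the vehicle libraries. With any 1 library left out, the log2 fold change of HFD against NC stayed below 0, from -1.38 to -0.88 for Camp and from -1.37 to -0.68 for Lcn2 (nearest to 0 without NC library 2). With scaling by library size alone the median of all genes moved to -0.26 for HFD against NC, 0.12 for DPI against vehicle and -0.17 for DPI against NC.

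**Figure D3:**
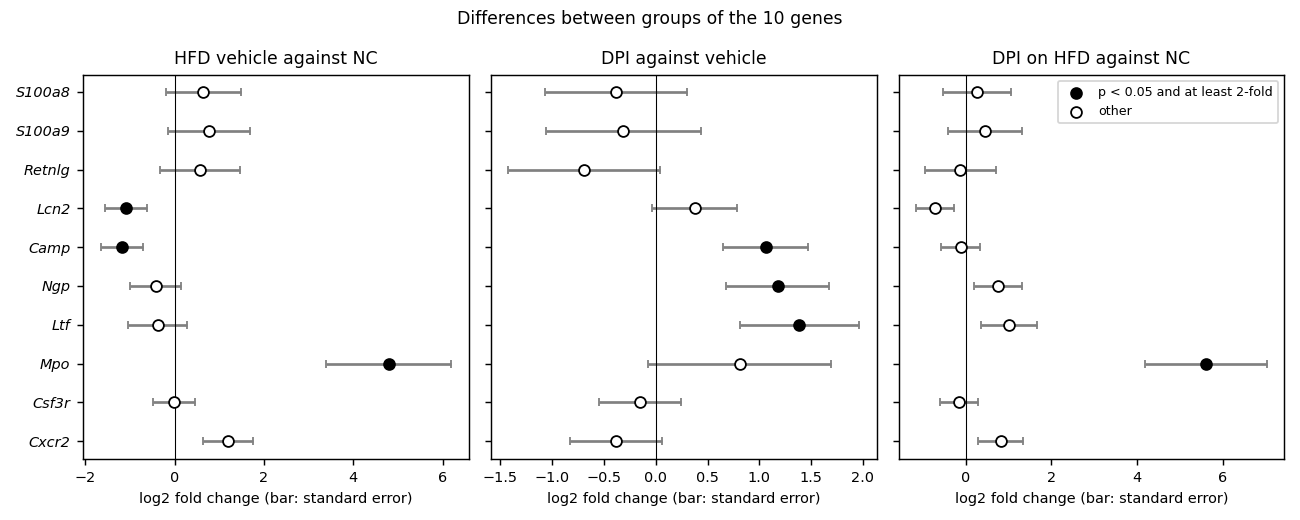
The log2 fold change of each gene (horizontal axis) is given with its standard error for the 3 comparisons, and filled points passed an unadjusted p under 0.05 with at least a 2-fold change. Camp is below 0 for HFD against NC (-1.18) and above 0 for DPI against vehicle (1.06), and Mpo is far above 0 in both comparisons with NC.

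Across the 9 libraries the members followed more than a single course. S100a8 went with S100a9 (Pearson r = 0.99, exact permutation p = 1.1e-05, adjusted 9.9e-05, and Spearman rho = 0.95, p = 0.00035, adjusted 0.0016, n = 9, two-sided, 9 relations) and with Retnlg (r = 0.97, exact permutation p = 0.00016, adjusted 0.00071, and rho = 0.95). NC library 1 and DPI libraries 1 and 2 lay below the other 6 in S100a8, and within these 6 r was 0.99 with S100a9 and 0.57 with Retnlg, given without a test. Without DPI libraries 1 and 2, the farthest from the median, r was 1.00 and 0.93. After the group means were taken off, r was 0.99 and 0.97.

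Cxcr2 gave r = 0.74 with S100a8 (exact permutation p = 0.0177, adjusted 0.0532) and rho = 0.82 (adjusted 0.0323), and r = 0.96 without DPI libraries 1 and 2. Csf3r gave r = 0.60 (exact permutation p = 0.0909, adjusted 0.204) and rho = 0.55, with r at 0.18 without these libraries and 0.77 within the 6 libraries of higher S100a8, and Lcn2 gave r = 0.55 (exact permutation p = 0.124, adjusted 0.222) and rho = 0.68, with r at 0.04 without these libraries and 0.89 after the group means were taken off. With S100a8 the other granule genes had r = -0.38 for Camp, 0.04 for Ngp, -0.07 for Ltf and 0.02 for Mpo, and rho of -0.23, 0.27, 0.18 and -0.083, none of which passed (exact permutation, adjusted p of r 0.475 for Camp and 0.967 for the other 3). Without DPI libraries 1 and 2 these r were -0.34, 0.058, 0.24 and 0.57. Within the 6 libraries of higher S100a8 they were 0.21, 0.52, 0.59 and -0.33, given without a test. There Ngp and Ltf were thus near the 0.57 of Retnlg. Among themselves, as a description over the same 9 libraries, r was 0.76 for Camp and Ngp, 0.83 for Ngp and Ltf and 0.71 for Camp and Ltf.

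**Figure D4:**
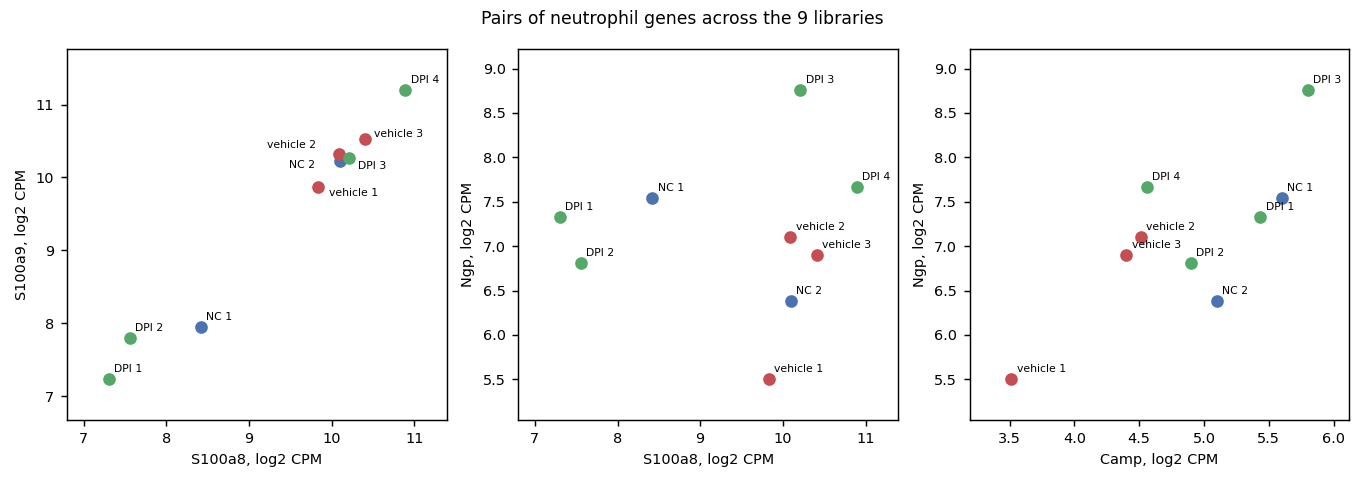
Points are the 9 libraries, coloured by group, with log2 CPM of 1 gene on each axis. S100a8 and S100a9 lie along a line (r = 0.99), S100a8 and Ngp do not (r = 0.04), and Camp and Ngp rise together with vehicle 1 lowest and DPI 3 highest (r = 0.76).

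Ratios within a library, which do not depend on its scaling, showed the same difference. S100a9 counts were 0.718 to 1.24 times those of S100a8 in the 9 libraries. Ngp counts were 0.543 and 0.0758 times those of S100a8 in NC, 0.0494, 0.126 and 0.0878 times with vehicle and 1.02, 0.596, 0.365 and 0.107 times with DPI. Camp, Ngp and Ltf were jointly 19.0% and 4.47% of the members' counts for NC, 2.35%, 6.29% and 4.00% for vehicle and 28.0%, 20.4%, 14.7% and 5.45% for DPI. The largest parts were thus in DPI libraries 1 and 2, where the calprotectin pair was low, while DPI library 4 lay within the vehicle range.

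Per kilobase of exon, S100a9 was the most abundant member by group mean in all 3 groups, followed by S100a8, Retnlg and Ngp, and Ltf and Mpo were the lowest. The length used was every exon base that GENCODE annotates for a gene, 694 bases for S100a8 and 522 for S100a9. It can exceed the length of the transcript in these cells, and the levels and their order depend on this choice. In vehicle the level was 2356 ± 524 CPM per kilobase (SD, n = 3) for S100a9 and 1614 ± 323 for S100a8, and S100a9 was above S100a8 in each of the 9 libraries except NC library 1. Retnlg, at 570 ± 137 CPM per kilobase, lay below both in each vehicle library. Ltf and Mpo had 7.93 ± 7.73 and 4.64 ± 2.24 CPM per kilobase and were not separated.

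Of 53 other listed neutrophil genes 45 were in the table and 38 were tested. For HFD against NC 1 was higher, Clec4e, against 7.03% of all genes, and 5 were lower, against 4.63%, among them Lrg1, a secreted glycoprotein of granules and liver, at -2.10 ± 0.52 (log2, SE), Prtn3, primary granule proteinase 3, at -1.89 ± 0.52, and Pglyrp1, a peptidoglycan-binding granule protein, at -1.04 ± 0.36. For DPI against vehicle 0 of the 38 passed the study's threshold in either direction, against 1.50% and 1.34%. For DPI against NC 0 were higher, against 6.24%, and 5 were lower, against 3.05%, among them Lrg1 at -1.69 ± 0.48, Il1f9, a cytokine of the IL-1 family, at -2.21 ± 0.66 and Pglyrp1 at -1.03 ± 0.34. None passed after Benjamini-Hochberg adjustment by edgeR, with the smallest adjusted p of those named at 0.146 (Lrg1, HFD against NC). Lrg1 is also made by hepatocytes, whose markers were lower in the same comparison (Alb at -2.74), and their part in its value was not tested.

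The genes most like the mean of the 10 members over the 9 libraries were Gprc5a (r = 0.95), Ier3 (0.93), Cirbp (0.93), F630111L10Rik (0.93), Cd37 (0.92), Dgat1 (0.92), Atf4 (0.92) and Mzb1 (0.92), by Pearson's r of log2 CPM among 11383 genes. As the members split, the genes most like S100a8 and Ngp were also listed after their values were seen. Trem1, an activating receptor of neutrophils and monocytes (r = 0.99), Mxd1 (0.98) and Il1r2, the decoy receptor of IL-1 (0.96), were among those most like S100a8, as was Cxcl2, a ligand of Cxcr2 (0.95). Those most like Ngp were Tmem41b (0.92), Pfdn5 (0.91), Tecpr2 (0.91) and Ipo9 (0.91), none of them on the neutrophil lists.

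Markers of other cells moved between these libraries. The 10 monocyte markers summed to 3954 to 5030 CPM in NC, 3867 to 5125 CPM with vehicle and 3373 to 7170 CPM with DPI. Ly6c2, the Gr-1 antigen of monocytes, was higher with HFD than NC (1.04 ± 0.35, log2, SE), whereas Ccr2, the chemokine receptor of inflammatory monocytes, was lower (-1.23 ± 0.45). Thus 1 of the 10 was called in each direction, against 7.03% of all genes higher and 4.63% lower. For 10 genes this is near these shares. Ccr2 had 514 and 359 CPM in NC, 189, 223 and 147 CPM with vehicle and 713, 296, 204 and 255 CPM with DPI. Ly6c1, a close relative of Ly6c2, gave 1.05 ± 0.56 for HFD against NC and was higher with DPI than NC (1.22 ± 0.55). Of the 10 general macrophage markers 2 were called lower for HFD against NC, against 4.63% of all genes, which were Emr1 (F4/80, -1.05 ± 0.38) and the complement gene C1qa (-1.37 ± 0.57). For DPI against vehicle 2 were called higher, against 1.50%, which were C1qa (1.14 ± 0.50) and C1qc (1.16 ± 0.50). The 10 Kupffer cell markers summed to 78.3 to 214 CPM over the 9 libraries, most of it in each library from Emr1, a gene of macrophages in general, and Marco had at most 1 count in any library. Of 10 eosinophil markers 9 were in the table and summed to 73.6 to 103 CPM in NC, 59.0 to 75.9 CPM with vehicle and 35.1 to 182 CPM with DPI. The eosinophil granule gene Prg2 was counted 0 and 1 times in NC, 0, 10 and 0 times in vehicle and 1296, 265, 2 and 468 times in DPI, so that it was high in DPI libraries 1, 2 and 4. DPI library 3, with the highest Camp, Ngp and Ltf, had 2 counts of Prg2. Of the 7 eosinophil genes tested 4 passed as higher with DPI than vehicle (Prg2, Epx, Ear1 and Ear6), against 1.50% of all genes. These 4 had at most 10 counts in any NC or vehicle library and passed the filter on low counts through DPI libraries alone. The share of all genes is therefore no fair measure for them. The 6 endothelial markers summed to 119 and 172 CPM in NC, 6.44 to 11.1 CPM with vehicle and 4.27 to 123 CPM with DPI, and 2 of 6 passed as higher with DPI than vehicle, against 1.50%. These were Clec4g and Stab2, lectin and scavenger receptors of the sinusoids, at 57.4, 32.3, 0 and 5.31 CPM and at 37.8, 23.4, 0 and 1.73 CPM in DPI libraries 1 to 4, so that both were high in libraries 1 and 2. Without these libraries 0 of 10 macrophage genes, 0 of 5 endothelial genes and 0 of the 2 eosinophil genes that could still be tested were called for DPI against vehicle, against 0.579% of 11049 genes called higher. For HFD against NC 3 of the 6 endothelial genes were called lower, among them Clec4g (-7.25 ± 1.69) and Stab2 (-6.01 ± 1.67), against 4.63% of all genes, and 1 was called higher, Pecam1. In the same comparison 2 of 9 T and NK cell genes, Cd3e (2.23 ± 0.59) and Il2rb (3.35 ± 0.81), and 1 of 5 B cell genes, Cd79b (2.73 ± 0.95), were called higher, against 7.03%. The T and NK markers summed to 82.9 and 288 CPM in NC, 266 to 374 CPM with vehicle and 223 to 461 CPM with DPI. The 5 B cell markers in the table summed to at most 179 CPM with vehicle and to 405 CPM in DPI library 4, and the 6 erythroid markers to 3455 CPM in NC library 1 and 2180 CPM in vehicle library 2. The 6 dendritic cell markers summed to 55.2 and 61.3 CPM in NC, 33.7 to 78.6 CPM with vehicle and 64.2 to 135 CPM with DPI, highest in DPI library 3. The part of these cells in the values of the neutrophil genes was not tested.

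**Figure D5:**
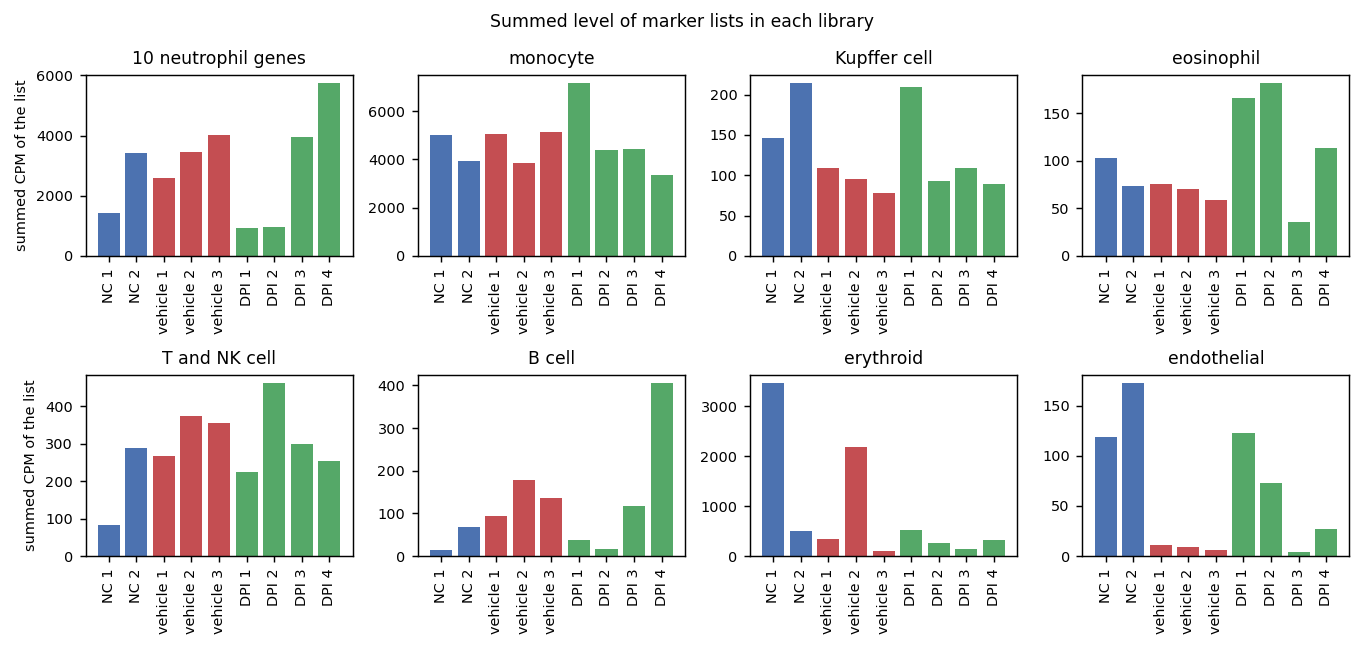
Bars give the summed CPM of each marker list (vertical axis, each panel on its own scale from 0) in each of the 9 libraries. The sum of the 10 neutrophil genes is low in NC 1, DPI 1 and DPI 2, whereas the eosinophil sum is highest in DPI 1 and DPI 2, at 166 and 182 CPM.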

How the data were processed

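Whole-number counts per gene, deposited by the authors without normalization, were analysed for 9 polyA RNA-seq libraries, each titled as from 1 mouse. Per the study's methods reads were aligned to mm10 and counted with bowtie2 and RSEM, while the submitters' processing notes name TopHat2 and edgeR. Strandedness was not given in the sources used here, so overlapping genes cannot be told apart by strand.

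Differences were tested by edgeR 4.0.16 under R 4.3.3 (filterByExpr, TMM, glmQLFit over 3 groups of 2, 3 and 4 libraries, glmQLFTest), with Benjamini-Hochberg adjustment over 11393 genes. The biological coefficient of variation was 0.65. SE is the log2 fold change divided by the root of F, and p-values measure the spread between these libraries. Correlations used log2 CPM with a prior count of 2 and exact permutation in scipy 1.17.1. DESeq2 was 1.42.0, Python 3.11.15, numpy 2.4.6, pandas 2.3.3 and matplotlib 3.10.9. Gene positions came from GENCODE M21 and promoters from RefSeq on GRCm38.p6, where all 10 members matched by symbol.

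The members, the gene lists and the rules were chosen with earlier results of these data known. Named were all members, at most 3 other neutrophil genes per comparison with the smallest p past the study's threshold, Ly6c1, Ly6c2 and Elane, and the 8 genes most like the members' mean. Other genes named, which are Alb, Serpina1a, C1qa, C1qc, Ccr2, Cd3e, Cd79b, Clec4e, Clec4f, Clec4g, Csf3, Ear1, Ear6, Emr1, Epx, Il2rb, Marco, Pecam1, Prg2, Stab2 and the genes most like S100a8 and Ngp, were chosen after their values were seen. Alternatives were other scalings and filters, DESeq2, fits of 2 groups, the replicate number as a block, no Rn45s counts, a prior count of 0.5 and each library left out. Protein sequences were not used here.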

Additional observations from a re-analysis of the deposited data

How the results depend on the processing

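Of 257 comparisons of a member's log2 fold change with an alternative other than leaving out 1 library, 229 kept their direction and their side of the study's threshold, 15 newly passed it, 2 no longer passed and 11 changed sign. With single libraries left out these numbers were 224, 8, 16 and 22 of 270. Cxcr2 for HFD against NC was the member that most often newly passed. RLE scaling and scaling by library size alone changed no call and no direction of a member. Members passing after adjustment numbered 1 with DESeq2 in each comparison with NC. Without single libraries the number past the study's threshold ran from 1 to 4 for HFD against NC, from 0 to 3 for DPI against vehicle and from 1 to 2 for DPI against NC, and after adjustment from 0 to 1, from 0 to 0 and from 0 to 1. For DPI against NC the number past the study's threshold was 0 with at least 10 counts in every library, where Mpo is not tested, 2 with a fit of 2 groups only and 4 without DPI libraries 1 and 2.

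The replicate numbers of the labels were not shown to pair the libraries, as deviations from the group means correlated at -0.022 to 0.084 in 7 same-numbered pairs. With the replicate number as a block the members past the study's threshold were 5 for DPI against vehicle, beside 401 of all 11393 genes (3.52%, with 1.32% higher and 2.20% lower). They were 4 for DPI against NC, beside 818 (7.18%), and Cxcr2 passed for HFD against NC (1.24). The log2 fold change of DPI against NC was -1.47 for S100a8 and -1.25 for S100a9. Replicate 4 occurs in DPI alone, so the block leaves DPI library 4 without weight in these values. NC holds replicates 1 and 2 alone, the numbers of the 2 DPI libraries with low S100a8.

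Without DPI libraries 1 and 2 the log2 fold change of DPI against vehicle was 0.46 for S100a8, 0.54 for S100a9, 0.17 for Retnlg, 0.28 for Csf3r and 0.078 for Cxcr2, and that of DPI against NC was 0.73 for Retnlg and 0.27 for Csf3r. For HFD against NC, Csf3r gave 0.0020 with at least 10 counts in every library and 0.021 without Rn45s counts. Without Rn45s counts the members' mean share of counts was 0.404% for NC, 0.490% for vehicle and 0.428% for DPI. With single libraries left out, the log2 fold changes that crossed 0 for HFD against NC ran from -0.077 to 1.79 for Retnlg, -0.85 to 0.29 for Ngp, -1.51 to 0.17 for Ltf and -0.16 to 0.21 for Csf3r. For DPI against vehicle they ran from -1.21 to 0.044 for S100a9 and -0.73 to 0.057 for Csf3r. For DPI against NC they ran from -0.49 to 1.35 for S100a8, -0.44 to 2.03 for S100a9, -0.77 to 1.10 for Retnlg, -0.37 to 0.17 for Camp and -0.74 to 0.093 for Csf3r.

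The correlation with S100a8 became 0.21 for Camp, 0.52 for Ngp, 0.59 for Ltf and -0.33 for Mpo within the 6 libraries of higher S100a8, 0.24 for Ltf and 0.57 for Mpo without the 2 farthest libraries, and 0.36 for Ngp, 0.32 for Ltf and -0.062 for Mpo with group means taken off. The cause of these changes was not tested. With 2 to 4 libraries per group, differences of the size of the SE could not be seen.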
